A study of Mus musculus with 10 samples.

Results

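Duox1, Prdx2 and Gsta4 are the genes of peroxide and lipid peroxide handling that could be read by name in RNA from extracellular vesicles of the mouse brain. They were chosen by gene symbol, from probes printed at 10 spots on each array whose RefSeq accession maps to one of these symbols. Each gene has 1 such probe, so the 3 genes stand among 46 genes with a name on the array and among 60823 probes in all. The probes are A_51_P475138 for Duox1 (NM_001099297), A_51_P147207 for Prdx2 (NM_011563) and A_51_P112223 for Gsta4 (NM_010357). Female mice of the inbred strain C57BL/6J, the sex and strain of both groups, were kept in room air (5 arrays) or in chronic intermittent ethanol vapor (5 arrays). Daily sessions lasted 8 h and were held on 5 days of each week for 4 weeks. Brains were collected at the end of the last exposure day, and extracellular vesicles (small particles with a membrane, shed by cells) were separated from whole brain by differential ultracentrifugation. Their total RNA, roughly 3 µg, was amplified, labelled with Cy3 and read on 1 single-colour array per sample. The labels do not say whether a sample is 1 animal or a pool, so a p-value reflects only how these samples vary, and some of that may be technical. In such bulk RNA a lower number of vesicles of one origin and less RNA in each of them cannot be told apart.

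Hydrogen peroxide is both a signal and a source of damage in cells. Dual oxidases such as Duox1 are membrane enzymes of the NADPH oxidase family that make it, and they are best known from the thyroid and from airway epithelium. Peroxiredoxins such as Prdx2 remove it through a reactive cysteine that thioredoxin then restores, and Prdx2 is abundant in red blood cells and in neurons. Where peroxides reach membrane lipids, reactive aldehydes such as hydroxynonenal form, and the glutathione transferase Gsta4 joins them to glutathione. Ethanol oxidation is a known source of reactive oxygen species and of lipid peroxidation. The design sets vesicle RNA after ethanol vapor against that after room air.

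A level is the log2 processed intensity, averaged over the 10 spots of a probe, minus the 75th percentile of all noncontrol spots of that array. All 300 spots of the 3 genes were well above background, 0 were marked non-uniform and 0 were saturated. Between 62.1% and 87.9% of the noncontrol spots were well above background on an array. The arrays form 2 sets that share a scan identifier in the file headers, and these are called scan sets here. Scan set 1 holds 3 room air arrays (replicates 1, 2 and 3) and 1 ethanol array (replicate 4). Scan set 2 holds 2 room air arrays (replicates 5 and 9) and 4 ethanol arrays (replicates 6, 7, 8 and 10). Of 49363 tested probes, 37141 (75.2%) differed between the scan sets at an adjusted p under 0.05 in limma with the group in the fit. The groups are unevenly spread over the sets, so each group difference below is given without a block, with the scan set as a block and within each set. Levels belong to probes, and whether each probe reports the gene it is named for was not tested.

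The level of Duox1, the peroxide producer, differed more between the scan sets than between the groups within them. In room air vesicles the Duox1 level was 3.88, 4.06 and 3.73 on replicates 1 to 3 and 2.0 and 1.96 on replicates 5 and 9. In ethanol vesicles it was 3.96 on replicate 4 and 1.49, 1.84, 1.33 and 1.66 on replicates 6, 7, 8 and 10. The 4 high readings are the arrays of scan set 1, the ethanol array lies inside the room air range there, and the whole groups overlap. The SD between arrays was 0.14 in set 1 (n = 4) and 0.27 in set 2 (n = 6), around means of 3.91 and 1.71. Within an array the SD over the 10 Duox1 spots was 0.067 to 0.17.

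Room air vesicles had a mean Duox1 level of 3.13 ± 1.05 (SD, n = 5), and ethanol vesicles one of 2.06 ± 1.08 (SD, n = 5). This is a difference of -1.07 (SE 0.60, 95% interval -2.40 to 0.26), or 0.476 times the room air level, with an adjusted p of 0.529 in limma. An exact two-sided permutation test over all splits into groups of 5 gave p = 0.0873. With the scan set as a block the Duox1 difference was -0.23 (SE 0.17, 95% interval -0.59 to 0.13), at a limma adjusted p of 0.692 and an exact p of 0.167 over the 60 splits within the sets. The blocked interval runs from 0.663 to 1.1 times the room air level.

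Within scan set 2 all 4 ethanol arrays had a lower Duox1 level than both room air arrays. The means there were 1.58 ± 0.22 (SD, n = 4) in ethanol and 1.98 ± 0.03 (SD, n = 2) in room air, a difference of -0.40 (SE 0.20, limma adjusted p 0.658). The exact permutation p was 0.133 in this set, where 15 splits allow none below 0.0667. The groups were likewise apart in this set for 19.7% of all tested probes, with ethanol lower for 9% and higher for 10.7%, beside 1 of the 3 genes here. In scan set 1 the single ethanol array was 0.07 above the room air mean of 3.89 ± 0.16 (SD, n = 3). The Duox1 effect in set 2 minus that in set 1 was -0.47 (SE 0.33, limma adjusted p 0.870), a value that rests on 1 ethanol array in set 1, whose spread is taken from the other groups.

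**Figure D1:**
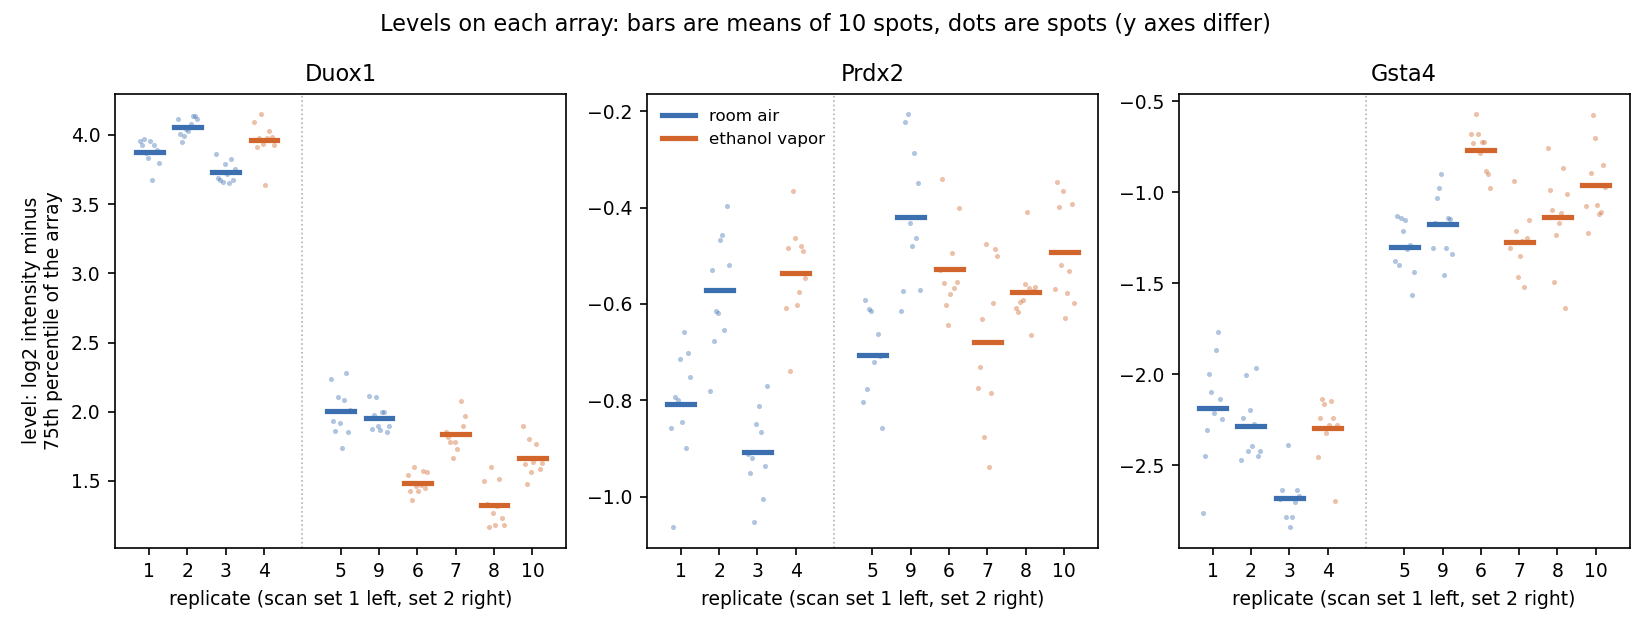
Level of Duox1, Prdx2 and Gsta4 on each of the 10 arrays, as log2 intensity minus the 75th percentile of the array, with scan set 1 left and scan set 2 right of the dotted line. Bars are means of 10 spots and dots are single spots, blue for room air and orange for ethanol vapor. Duox1 lies between 3.73 and 4.06 in scan set 1 and between 1.33 and 2.0 in scan set 2, whereas Prdx2 keeps to the range from -0.91 to -0.42 and Gsta4 is higher in scan set 2.

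Prdx2, the peroxide remover, kept within a narrow range, and its level passed the threshold neither between the groups nor between the scan sets at this scaling. In room air vesicles the Prdx2 level was -0.81, -0.57 and -0.91 on replicates 1 to 3 and -0.71 and -0.42 on replicates 5 and 9. In ethanol vesicles it was -0.54 on replicate 4 and -0.53, -0.68, -0.57 and -0.49 on replicates 6, 7, 8 and 10. The ethanol arrays fall inside the room air range on every replicate, and the widest spread is among the room air arrays.

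Room air vesicles averaged -0.68 ± 0.19 (SD, n = 5) for Prdx2, and ethanol vesicles -0.56 ± 0.07 (SD, n = 5). Ethanol minus room air was 0.12 (SE 0.18, 95% interval -0.27 to 0.51), where limma gave an adjusted p of 0.702 and the exact permutation test p = 0.230. With the scan set as a block it was 0.08 (SE 0.14, 95% interval -0.24 to 0.39), at a limma adjusted p of 0.898 and an exact p of 0.483 within the sets. That interval spans 0.848 to 1.31 times the room air level. Within scan set 2 the Prdx2 means were -0.57 ± 0.08 (SD, n = 4) in ethanol and -0.56 ± 0.20 (SD, n = 2) in room air, a difference of -0.0059. In scan set 1 the ethanol array was 0.23 above the room air mean of -0.76 ± 0.17 (SD, n = 3). The sign of the Prdx2 difference turned with the scaling, from 0.12 to -0.31 with median scaling, -0.10 with quantile normalization and -0.10 without scaling, so no direction is given for it.

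Gsta4, which detoxifies lipid aldehydes, read higher in scan set 2, and its groups overlapped in both sets. In room air vesicles the Gsta4 level was -2.18, -2.28 and -2.68 on replicates 1 to 3 and -1.30 and -1.18 on replicates 5 and 9. In ethanol vesicles it was -2.29 on replicate 4 and -0.77, -1.27, -1.14 and -0.96 on replicates 6, 7, 8 and 10. The 4 low readings are again the arrays of scan set 1, and the groups overlap within each set as well as over all arrays. The SD over its 10 spots ran from 0.12 to 0.29, with a median of 0.17 against 0.11 for Duox1 and 0.10 for Prdx2.

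For Gsta4 the room air mean was -1.92 ± 0.65 (SD, n = 5), and that of ethanol vesicles was -1.29 ± 0.60 (SD, n = 5). Ethanol minus room air was 0.64 (SE 0.38, 95% interval -0.19 to 1.47), or 1.56-fold, at a limma adjusted p of 0.529 and an exact permutation p of 0.119. With the scan set as a block the Gsta4 difference was 0.16 (SE 0.16, 95% interval -0.20 to 0.52), at a limma adjusted p of 0.789 and an exact p of 0.300 within the sets. The blocked interval spans 0.872 to 1.44 times the room air level. Within scan set 2 the means were -1.03 ± 0.22 (SD, n = 4) in ethanol and -1.24 ± 0.09 (SD, n = 2) in room air, a difference of 0.21 (exact permutation p 0.267). In scan set 1 the ethanol array was 0.09 above the room air mean of -2.38 ± 0.26 (SD, n = 3).

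**Figure D2:**
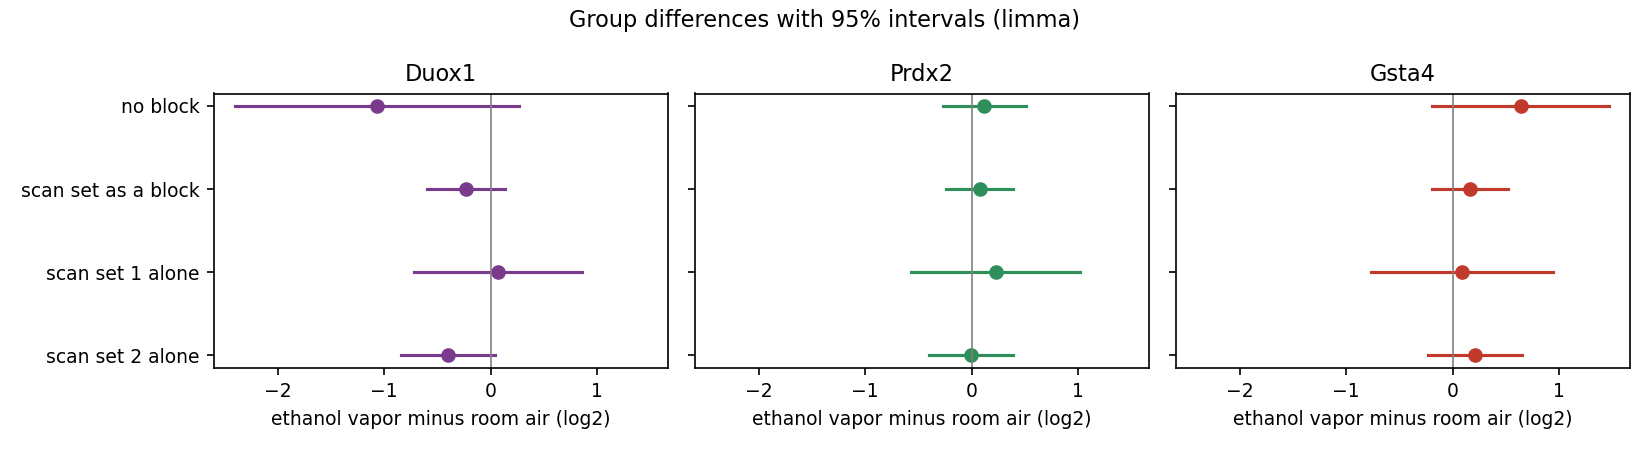
Difference in level between ethanol vapor and room air (log2) for Duox1, Prdx2 and Gsta4, without a block, with the scan set as a block, and in each scan set alone. Points are limma estimates and lines are their 95% intervals, where the lone ethanol array of scan set 1 is assumed to vary like the others. Each of the 12 lines crosses 0, and the blocked estimates of Duox1 (-0.23) and Gsta4 (0.16) are closer to 0 than the unblocked ones (-1.07 and 0.64).

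So 0 of the 3 genes passed an adjusted p of 0.05 between ethanol vapor and room air, with or without the block. Of all 49363 tested probes 0% passed in limma in either fit, and 0% in scan set 2 alone. Before adjustment, p was under 0.05 for 2432 probes (4.93%) without the block, 4248 (8.61%) with it and 3775 (7.65%) in scan set 2 alone, and for 0 of the 3 genes in each. That count of genes became 2 without ethanol replicate 4, with unadjusted limma p of 0.00881 for Duox1 and 0.0221 for Gsta4, and 1 without room air replicate 9, with 0.0494 for Duox1. It stayed at 0 under every single omission in the blocked fit. Leaving out 1 array moved the unblocked count from 596 (without room air replicate 3) to 19009 (without ethanol replicate 4) and the blocked count from 2081 (without ethanol replicate 4) to 6150 (without ethanol replicate 7). Each omission except that of ethanol replicate 7 moved the unblocked count by over 1.5 times. Without ethanol replicate 4 the unblocked differences were -1.55 for Duox1 (limma adjusted p 0.114), 0.11 for Prdx2 and 0.89 for Gsta4 (limma adjusted p 0.114), and all ethanol arrays that remain are of scan set 2. The groups did not overlap for 0.508% of tested probes, and for 0 of the 3 genes. Array weights turned Duox1 and Gsta4 into calls, at -2.15 and 1.31 with adjusted p of 1.61e-04 and 2.93e-04 in limma, among 34924 probes called by that fit. The 3 lowest weights, 0.132, 0.207 and 0.211, went to the ethanol array of scan set 1 and both room air arrays of scan set 2. With weights and the block together the unadjusted limma p was 0.0364 for Duox1 and 0.121 for Gsta4. The adjusted p in that limma fit was 0.281 for Duox1 and 0.420 for Gsta4, and 0 probes were called.

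Between the scan sets Duox1 was lower and Gsta4 higher in set 2, and Prdx2 did not pass the threshold. Duox1 fell by 2.10 (SE 0.17) from scan set 1 to scan set 2, 0.234 times its level in set 1 (limma adjusted p 1.31e-06). Gsta4 was higher by 1.19 (SE 0.17) in set 2, or 2.28-fold (limma adjusted p 5.89e-05). Prdx2 differed by 0.11 (SE 0.15, 95% interval -0.22 to 0.43), at a limma adjusted p of 0.522. So 2 of the 3 genes passed, beside 75.2% of all tested probes, made up of 56.8% higher and 18.4% lower in set 2. Duox1 levels of the sets did not overlap, nor did those of Gsta4, as for 16% of tested probes lower and 45.9% higher in set 2. The filter asked for at least 5 arrays above background. A probe above it only in set 1 (4 arrays) was left out, whereas one above it only in set 2 (6 arrays) could pass. The filter thus favours probes higher in set 2 in these shares and in those by scaling below, by an amount that was not tested. Among the 35 named genes that were tested, 2 had a lower difference than Duox1 and 9 a higher one than Gsta4.

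**Figure D3:**
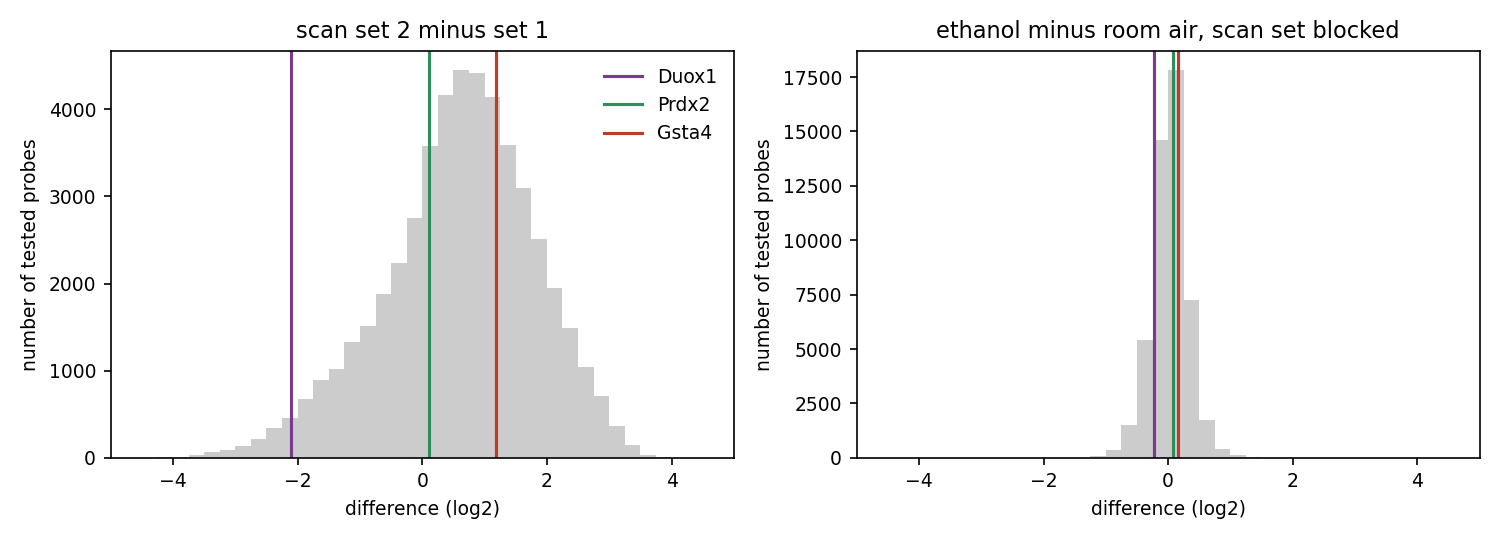
Number of tested probes by their difference (log2, bins 0.25 wide) between the scan sets, left, and between ethanol vapor and room air with the scan set as a block, right. Coloured lines mark Duox1, Prdx2 and Gsta4. The scan set differences of the 3 genes are spread from -2.10 to 1.19, whereas their blocked group differences lie between -0.23 and 0.16, with 16.4% of all probes below Duox1 and 70.4% below Gsta4.

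The scan set shift depended on the scaling for Prdx2 and Gsta4 but not in its call for Duox1. The median of all tested probes was 0.69 higher in set 2, and scaling to the median moved it to -0.21. Relative to the median of all probes, the shift was -2.78 for Duox1, -0.58 for Prdx2 and 0.50 for Gsta4 at the scaling used here. Duox1 stayed past the threshold under each of 5 other choices of scaling or background, from -2.99 to -1.58. Gsta4 was 0.29 (limma adjusted p 0.111) with median scaling, 0.29 (limma adjusted p 0.104) with quantile normalization and 0.69 (limma adjusted p 5.49e-04) with normexp background correction. Prdx2 became -0.79 (limma adjusted p 8.04e-04) with median scaling and 0.57 (limma adjusted p 0.00387) with a 75th percentile taken from the probes that all arrays detected. Calls higher in set 2 were 75.5% of all calls, but 38.3% with median scaling, 53.5% with quantile normalization and 85.6% with that percentile.

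Unscaled intensities showed the same pattern and were set beside the control spots. Duox1 read 3356 to 5268 in scan set 1 and 560 to 1438 in scan set 2. Prdx2 read 130 to 213 in set 1 and 149 to 219 in set 2. Gsta4 read 51 to 65.3 in set 1 and 102 to 161 in set 2. Over the same arrays the median of the E1A control spots, which are not directed at mouse genes, was 24.3 to 28.7 in set 1 and 79.9 to 114.5 in set 2. The median of the 45 noncontrol spots that carry a name of negatives was 12 to 15.1 in set 1 and 51.5 to 80.4 in set 2. Gsta4 and these dim spots were thus higher in set 2 together. On the scaled log2 level the mean over arrays was -2.36 in set 1 and -1.10 in set 2 for Gsta4, and the matching shifts were 1.90 for E1A and 2.34 for the negatives. The part of this shift in the Gsta4 level was not tested. Structural negative spots shifted by 0.39 on that scale, with medians of 5.0 to 6.8 in set 1 and 6.6 to 9.6 in set 2. Between 2.22% and 20% of the spots named as negatives were brighter than Gsta4 on an array, and 0 were brighter than Duox1 or Prdx2 on any array. Duox1 moved the other way from the control spots.

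**Figure D4:**
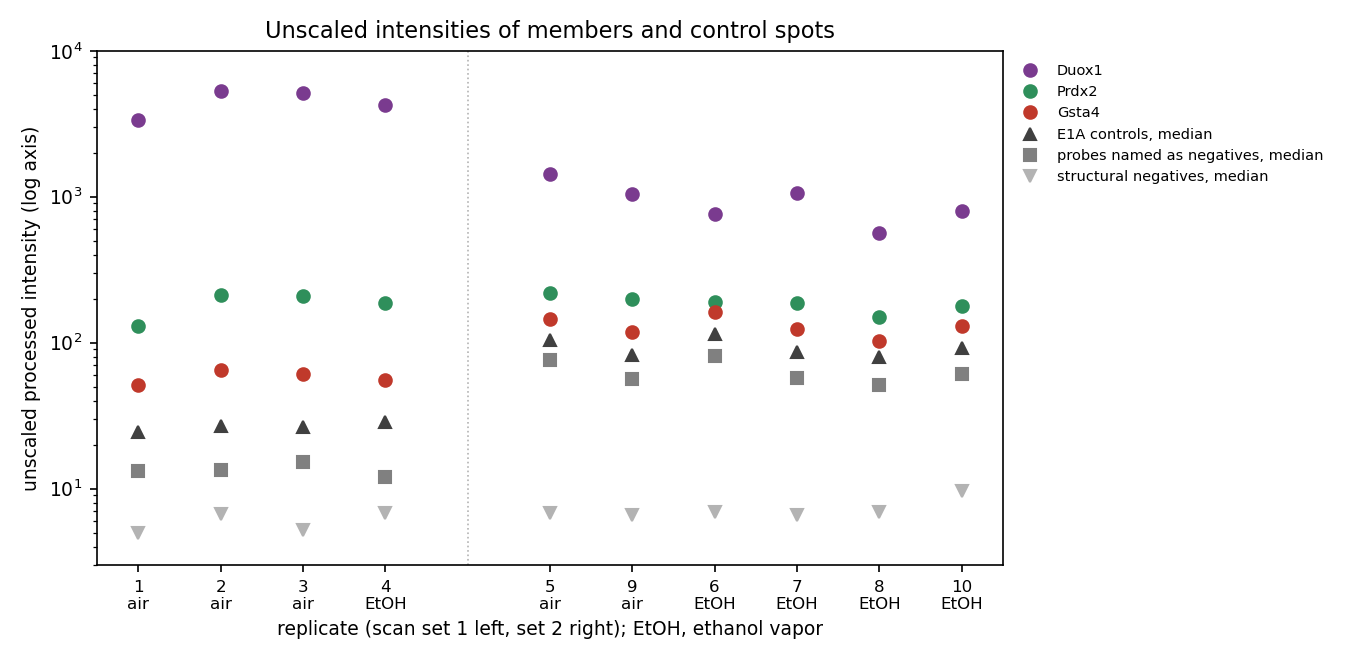
Unscaled processed intensity (log axis) of Duox1, Prdx2 and Gsta4 on each array, as the mean of 10 spots, with the medians of 3 kinds of control spots in grey. Scan set 1 is left and scan set 2 right of the dotted line. Duox1 is at 3356 or more in scan set 1 and at 1438 or less in scan set 2, Gsta4 and the E1A controls are higher in set 2, and Prdx2 stays between 130 and 219.

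The rank of each probe within its array needs no scaling. Duox1 was brighter than 90.3% to 90.8% of tested probes in scan set 1 and than 82.3% to 85.3% in set 2. Prdx2 stood at 59.9% to 64.2% in set 1 and 56.3% to 62.4% in set 2. Gsta4 stood at 30.9% to 37.1% in set 1 and 40.0% to 50.1% in set 2. In set 2 the ethanol arrays ranked from 82.3% to 84.6% for Duox1, below the room air arrays at 84.7% and 85.3%. For Gsta4 the ranks overlapped in that set, with 41.3% to 50.1% in ethanol and 40.0% and 43.6% in room air. Prdx2 ranks also overlapped, with 57.1% to 58.9% in ethanol and 56.3% and 62.4% in room air.

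Differences between 2 of the genes on the same array are likewise free of scaling, and only their change between arrays is read. In scan set 2 Duox1 minus Gsta4 was 3.13 and 3.31 in room air and 2.25 to 3.11 in ethanol. In scan set 1 it was 6.06 to 6.41 in room air and 6.26 in ethanol, inside the room air range. Prdx2 minus Gsta4 in set 2 was 0.60 and 0.76 in room air and 0.24 to 0.59 in ethanol. In scan set 1 this value was 1.37 to 1.77 in room air and 1.76 in ethanol. Duox1 minus Prdx2 in set 2 was 2.38 and 2.71 in room air and 1.90 to 2.52 in ethanol. In scan set 1 this value was 4.63 to 4.69 in room air and 4.50 on the 1 ethanol array, below the room air range. For each pair the nearest room air and ethanol values lay close together or overlapped in set 2, and no test was made of these differences.

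**Figure D5:**
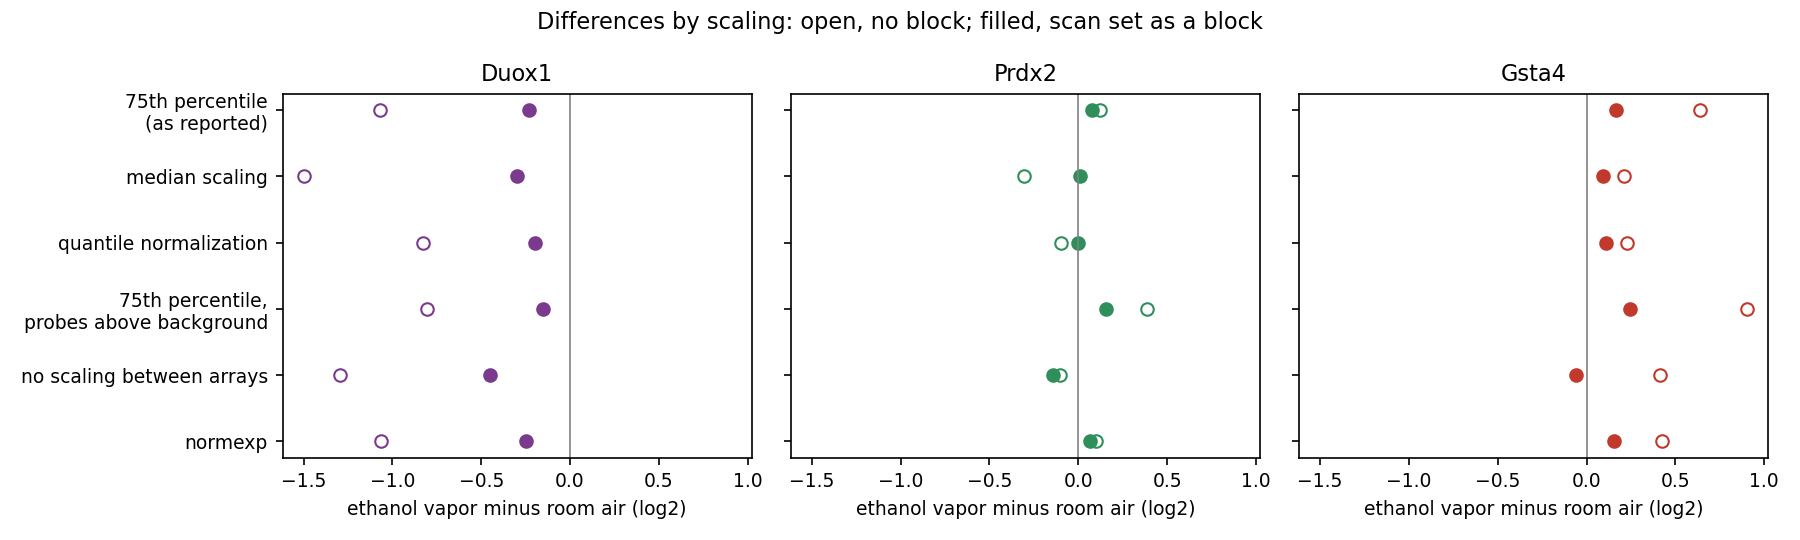
Difference between ethanol vapor and room air (log2) for Duox1, Prdx2 and Gsta4 under 6 choices of scaling or background, with open circles for no block and filled circles for the scan set as a block. Duox1 is below 0 in each case, from -1.50 to -0.15. Prdx2 lies on both sides of 0, and Gsta4 is above 0 except for -0.06 without scaling in the blocked fit.

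Likeness to other named genes was measured as the mean absolute difference (log2) between profiles over the 10 arrays, each centred on its own mean, among 34 other tested genes. The closest to Duox1 were Il2, which encodes a T cell growth factor (0.22), and Gsdmd, a pore-forming gasdermin (0.23), against a median of 1.26 over the 34 genes. The closest to Prdx2 were the lipid carrier gene Apoe (0.081), Taf1a (0.12) and beta-actin, Actb (0.12), with a median of 0.46. The closest to Gsta4 were Rab5a, an early endosome GTPase (0.16), Lhfp (0.17) and Rps4l (0.18), with a median of 0.54. Il2 and Gsdmd also differed between the scan sets, by -2.36 and -2.31, and the value for Apoe was 0.10. With each scan set centred on its own mean, Actb (0.10), Gamt (0.13) and Chgb (0.14) were closest to Duox1, and Il2 and Gsdmd were no longer among the first 3. Prdx2 then lay closest to Taf1a (0.077), Chgb (0.077) and Apoe (0.081). Gsta4 then lay closest to the histocompatibility gene H2-Q7 (0.031), Lhfp (0.054) and the nuclear pore gene Nup50 (0.062), against a median of 0.19.

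Other genes of the pathway could not be read by name. Of 82 further genes, with 25 peroxide producers, 26 removers and their reducing partners, 25 of lipid peroxide and aldehyde handling and 6 regulators, 0 had a named probe here. The genes thus stand as 1 probe per step, and no count over the pathway is given. Of 28 markers for brain cell types, red blood cells and vesicles, 2 had a named probe, Mbp of oligodendrocytes and Apoe of astrocytes. Both were well above background on 10 of 10 arrays, with levels from 0.75 to 1.51 for Mbp and 0.51 to 0.98 for Apoe. Actb, outside these lists, had levels from 0.65 to 1.17. The Duox1 probe, at 1.33 to 4.06, read above Apoe and Actb on every array, and its range overlapped that of Mbp. Whether that signal comes from Duox1 RNA was not tested. The 3 red blood cell markers and the 6 vesicle markers had no named probe, so the vesicle label was not checked, nor was the part of red blood cells in the Prdx2 level.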

How the data were processed

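Linear spot intensities were deposited as scanner output, which per the file headers came from Agilent's Feature Extraction software, version 11.0.1.1. Per the same headers background was subtracted and signals were detrended within an array, and this scanner output was not scaled across arrays. The deposited value table, which the authors gave on a log2 scale, had a lowest r with the scanner values of 0.993. Its median was 6.50 on every array, against log2 medians of 5.72 to 7.12 for the noncontrol spots of the scanner output. Its arrays thus share a common median, and the sources used here do not say how it was scaled. That table gave no value for the 3 genes and served only for counts of calls. Here non-uniform and control spots were left out, log2 intensities were reduced by the 75th percentile of the array, spots were averaged, and probes above background at 0.5 of their spots on at least 5 arrays were tested (49363). Names came from a RefSeq table of assembly GRCm38.p6. The headers name mm9, so no coordinates are given. Probe sequences were not used here.

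Groups came from sample titles. Replicates carry the title numbers. The comparisons used limma 3.58.1 under R 4.3.3 (two-sided, Benjamini-Hochberg over all tested probes), tested on simulated data, and exact two-sided permutation tests of single genes. Members, lists and the naming rule (the 3 genes, 3 nearest profiles each, listed genes with a named probe) were chosen with earlier results of these data known. One of the nearest profiles is not reported here. Alternatives were scaling, background, filters, spots, weights, blocks and left-out arrays; normexp used the median pixel, since the files used here give no mean. The highest share of equal values between 2 arrays was 0.0%. The number of arrays limits precision.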

Additional observations from a re-analysis of the deposited data

Results flagged for a closer look

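Of 21 groups of values, 5 held an array that stood well away from the rest. Chance gives about 1 group in 20, though these groups share arrays and are not independent. That rate also assumes like arrays, whereas the ethanol arrays are 1 of scan set 1 and 4 of scan set 2. No excess over chance is therefore read from the 5 groups. In 4 of the 5 the array was ethanol replicate 4, the 1 ethanol array of scan set 1. For the Duox1 level its gap to the nearest ethanol array was 0.805 of the whole range, with 3.96 on that array and 1.33 to 1.84 on the others. The gap was 0.785 of the range for Duox1 minus Gsta4, 0.762 for Duox1 minus Prdx2 and 0.767 for Prdx2 minus Gsta4, with that array highest each time. In the fifth, the SD over the 10 Duox1 spots of room air replicate 5 was 0.17, against 0.067 to 0.096 on the other room air arrays, a gap of 0.724 of the range.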

How the results depend on the processing

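No paired analysis was possible because the title numbers run across both groups and no number is shared. Duox1 kept its sign in 26 of 27 alternatives to the unblocked fit, the exception being scan set 1 alone (0.072). Its sign also held in 20 of 20 alternatives to the blocked fit. The 27 include fits with the scan set as a fixed or random block, weights with the block, and each set alone. Both counts hold changes of probe filter and the keeping of non-uniform spots. These could not move the estimate, since a filter leaves a probe's own values unchanged and 0 Duox1 spots were non-uniform. Array weights gave -2.15 for Duox1, 1.31 for Gsta4 and 34924 calls in place of 0. Prdx2 reversed with median scaling (-0.31), quantile normalization (-0.10), no scaling (-0.10) and in scan set 2 alone (-0.0059). With the block it reversed with quantile normalization (-0.0041), no scaling (-0.14) and without ethanol replicate 4 (-0.0059), and Gsta4 reversed with no scaling (-0.057). Between the scan sets Prdx2 was -0.79 with median scaling, -0.23 with quantile normalization and 0.57 when the percentile was taken from the probes that all arrays detected, and Gsta4 was 0.29 with median scaling and 0.29 with quantile normalization. With 1 array left out, the unblocked differences ran from -1.55 to -0.84 for Duox1, 0.06 to 0.19 for Prdx2 and 0.45 to 0.89 for Gsta4. The blocked ones ran from -0.40 to -0.16, -0.0059 to 0.18 and 0.11 to 0.21, and the count of calls stayed at 0. The cause of these changes was not tested. Leaving out population outlier spots and omitting background subtraction were chosen after seeing the data and changed no sign or call.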
